A study of Mus musculus with 29 samples.

Results

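The expression of 10 Notch pathway genes was examined in the mouse cortex at E17.5, among 50233 genes listed in the count tables. The genes were chosen by name as the receptors Notch1, Notch2 and Notch3, the ligands Dll1 and Jag1, and the targets Hes1, Hes5, Hey1, Hey2 and Heyl. All 10 were found by symbol in every count table, and all 10 passed the filter on low counts in both experiments. RNA-seq was available for 19 libraries in 5 groups, all from C57BL/6J embryos. The untreated experiment held 4 libraries with the letter C and 3 with the letter M in their names. The treated experiment held 4 WT libraries given vehicle, 4 dcKO libraries given vehicle and 4 dcKO libraries given a Wnt inhibitor. In dcKO embryos, floxed alleles of the genes for BAF155 (Smarcc1) and BAF170 (Smarcc2), both core subunits of the chromatin remodelling BAF complex, are deleted by hGFAP-Cre. This Cre acts in neural progenitors of the medial pallium first and reaches the dorsal and lateral pallium later, so the dissected tissue also contains cells without deletion. By the methods of the study, the controls carried Cre and were heterozygous for both floxed alleles, and the inhibitor was ICG-001, injected daily into the pregnant dams. The genotype label reads dcKO for the C libraries too, so C and M were told apart by the letters alone, and their numbers match the 4 control and 3 dcKO samples in the methods. In addition, H3K27me3 peak lists were examined for 4 libraries with the letter C and 4 with the letter K, whose genotype label likewise reads dcKO for both.

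Notch signaling passes between neighbouring cells. A ligand of the Delta or Jagged family on one cell binds a Notch receptor on the next, the receptor is cleaved, and its intracellular domain enters the nucleus. There it joins the DNA-binding protein RBPJ and switches on genes of the Hes and Hey families, which encode transcriptional repressors. In the developing cortex, this pathway is known for keeping radial glia, the neural stem cells of the ventricular zone, from differentiating into neurons. Newborn neuronal cells present Dll1, and in radial glia Hes1 and Hes5 repress proneural genes such as Neurog2. Notch3 and Heyl are also well known in the mural cells of blood vessels, so bulk tissue values sum over several cell types.

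RBPJ binds DNA with the core TGGGAA, and the sequence before the transcription start was read for 7 of the 10 genes from RefSeq promoters on GRCm38.p6. The core, on either strand, was found in the 250 bases before the start in 2 of these 7 genes, Hes5 and Hey2. Of all 32851 RefSeq promoter windows of the same length, 21.6% held it. The windows of both genes are shown 5′ to 3′ on the strand of the gene, with the core and its reverse complement TTCCCA in capitals, because these genes are direct readouts of the pathway. The window of Notch3, the receptor with the largest genotype difference below, is shown for comparison and holds no copy.
Hes5: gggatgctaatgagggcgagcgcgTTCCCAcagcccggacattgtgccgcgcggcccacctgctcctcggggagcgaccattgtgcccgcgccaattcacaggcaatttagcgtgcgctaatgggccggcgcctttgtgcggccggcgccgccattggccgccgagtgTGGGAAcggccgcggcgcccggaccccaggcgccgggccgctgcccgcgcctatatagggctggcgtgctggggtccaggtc
Hey2: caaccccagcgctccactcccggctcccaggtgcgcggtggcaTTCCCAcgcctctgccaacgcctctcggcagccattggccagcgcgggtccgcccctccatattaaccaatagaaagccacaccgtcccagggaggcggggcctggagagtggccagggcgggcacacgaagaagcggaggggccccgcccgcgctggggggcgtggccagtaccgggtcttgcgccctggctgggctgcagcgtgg
Notch3: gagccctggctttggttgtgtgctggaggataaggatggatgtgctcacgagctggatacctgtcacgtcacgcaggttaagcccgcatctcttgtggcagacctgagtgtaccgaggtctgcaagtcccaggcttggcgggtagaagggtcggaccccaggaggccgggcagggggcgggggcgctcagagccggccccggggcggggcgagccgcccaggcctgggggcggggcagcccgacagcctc
The Hes5 window lies at chr4:154960673-154960922 on the plus strand and holds 2 copies, which begin 226 and 82 bases before the start. The Hey2 window lies at chr10:30842784-30843033 on the minus strand and holds 1 copy, which begins 207 bases before the start. The Notch3 window lies at chr17:32166891-32167140 on the minus strand. The match is a match of letters only. It does not show that a site is bound. A GC content of 71.6% was found in the Hes5 window, 71.6% in the Hey2 window and 68.8% in the Notch3 window, against a median of 52.4% over all windows.

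The deleted genes were examined as a check of the labels. Smarcc1 lay at 247, 264, 269 and 248 CPM (read counts scaled to a common library size with TMM factors) in the C libraries 1 to 4. It lay at 128 and 135 CPM in M replicates 3 and 4, but at 245 CPM in the library labelled M replicate 2, a value like those of the controls. The treated groups were split in a similar way. In WT vehicle libraries 1 to 4, Smarcc1 lay at 245, 266, 299 and 256 CPM. In dcKO vehicle libraries it lay at 136, 133 and 138 CPM for replicates 1, 3 and 4, but at 242 CPM in the library labelled dcKO vehicle replicate 2. Under the inhibitor, the values were 214, 252, 140 and 173 CPM for replicates 1 to 4. Smarcc2 was also highest in replicate 2 of the M and dcKO vehicle groups, with 670 CPM against 399 and 398 CPM in M, and 692 CPM against 425 to 439 CPM in dcKO vehicle. In inhibitor libraries 1 to 4, Smarcc2 lay at 644, 695, 416 and 586 CPM. Thus, 4 libraries labelled as mutant lay nearer to the control mean of Smarcc1 than to the lowest library labelled dcKO: M replicate 2, dcKO vehicle replicate 2, and inhibitor replicates 1 and 2. For Smarcc2, inhibitor replicate 4 too lay nearer to the WT vehicle mean of 731 CPM than to the lowest library labelled dcKO, and it was kept because the split used Smarcc1. Each comparison is therefore given with all libraries and again without these 4, an alternative added after the data were seen. Libraries held 11946658 to 28391046 counted reads, and single members held 36 to 2802 reads in a library. The lowest total was that of M replicate 2, where the other untreated libraries held at least 22509306. WT vehicle replicate 3 followed with 12514443, where the other treated libraries held at least 16060994. The part of depth in the results was not tested.

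Libraries of the 2 experiments were not clearly separate samples. Deviations of the libraries from their group means were compared across 10557 genes between the untreated and the vehicle groups. Libraries with the same number correlated at 0.10 to 0.58 for C with WT vehicle and at 0.68 to 0.92 for M with dcKO vehicle. Libraries with different numbers correlated at -0.48 to 0.37 (median -0.07) and at -0.80 to 0.51 (median -0.50), so the ranges overlapped for C with WT vehicle. Whether they came from the same embryos is not given in the sources used here, so the untreated and vehicle results are not taken as independent of each other. Cell type markers were present throughout. Summed markers of radial glia (8 genes) lay between 1296 and 1779 CPM in all libraries, those of neurons (8 genes) between 6974 and 10434 CPM, and those of cortical tissue (4 genes) between 768 and 1341 CPM. Choroid plexus markers (7 genes) were the least even, with 858, 166, 493 and 12.4 CPM in inhibitor libraries 1 to 4 and 6.13 to 136 CPM elsewhere. In such bulk tissue, fewer cells of a type and less RNA per cell cannot be told apart.

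Per kilobase of exon, Dll1 and Hes5 were among the most abundant members in all 5 groups, and the Hey family members Hey2 and Heyl were the least abundant. By group mean, Notch2 lay above Hes5 in C only. In C libraries, Dll1 reached 8.54 ± 0.240 CPM per kb (SD, n = 4), Notch2 7.84 ± 0.980 and Hes5 7.34 ± 0.693. These neighbours in the order lay within their spread of each other. Hey1 followed with 5.87 ± 0.555 CPM per kb, Notch1 with 5.69 ± 0.815, Notch3 with 4.24 ± 0.196, Jag1 with 3.90 ± 0.340 and Hes1 with 3.42 ± 0.838. Heyl, at 1.24 ± 0.174 CPM per kb, and Hey2, at 0.804 ± 0.0308, had the lowest levels in all 5 groups. In dcKO vehicle libraries, Hes5 was the highest with 12.4 ± 1.65 CPM per kb (SD, n = 4), followed by Dll1 with 11.7 ± 1.11. Exon lengths were taken from GENCODE M21, and the annotation used for counting is not given in the sources used here.

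**Figure D1:**
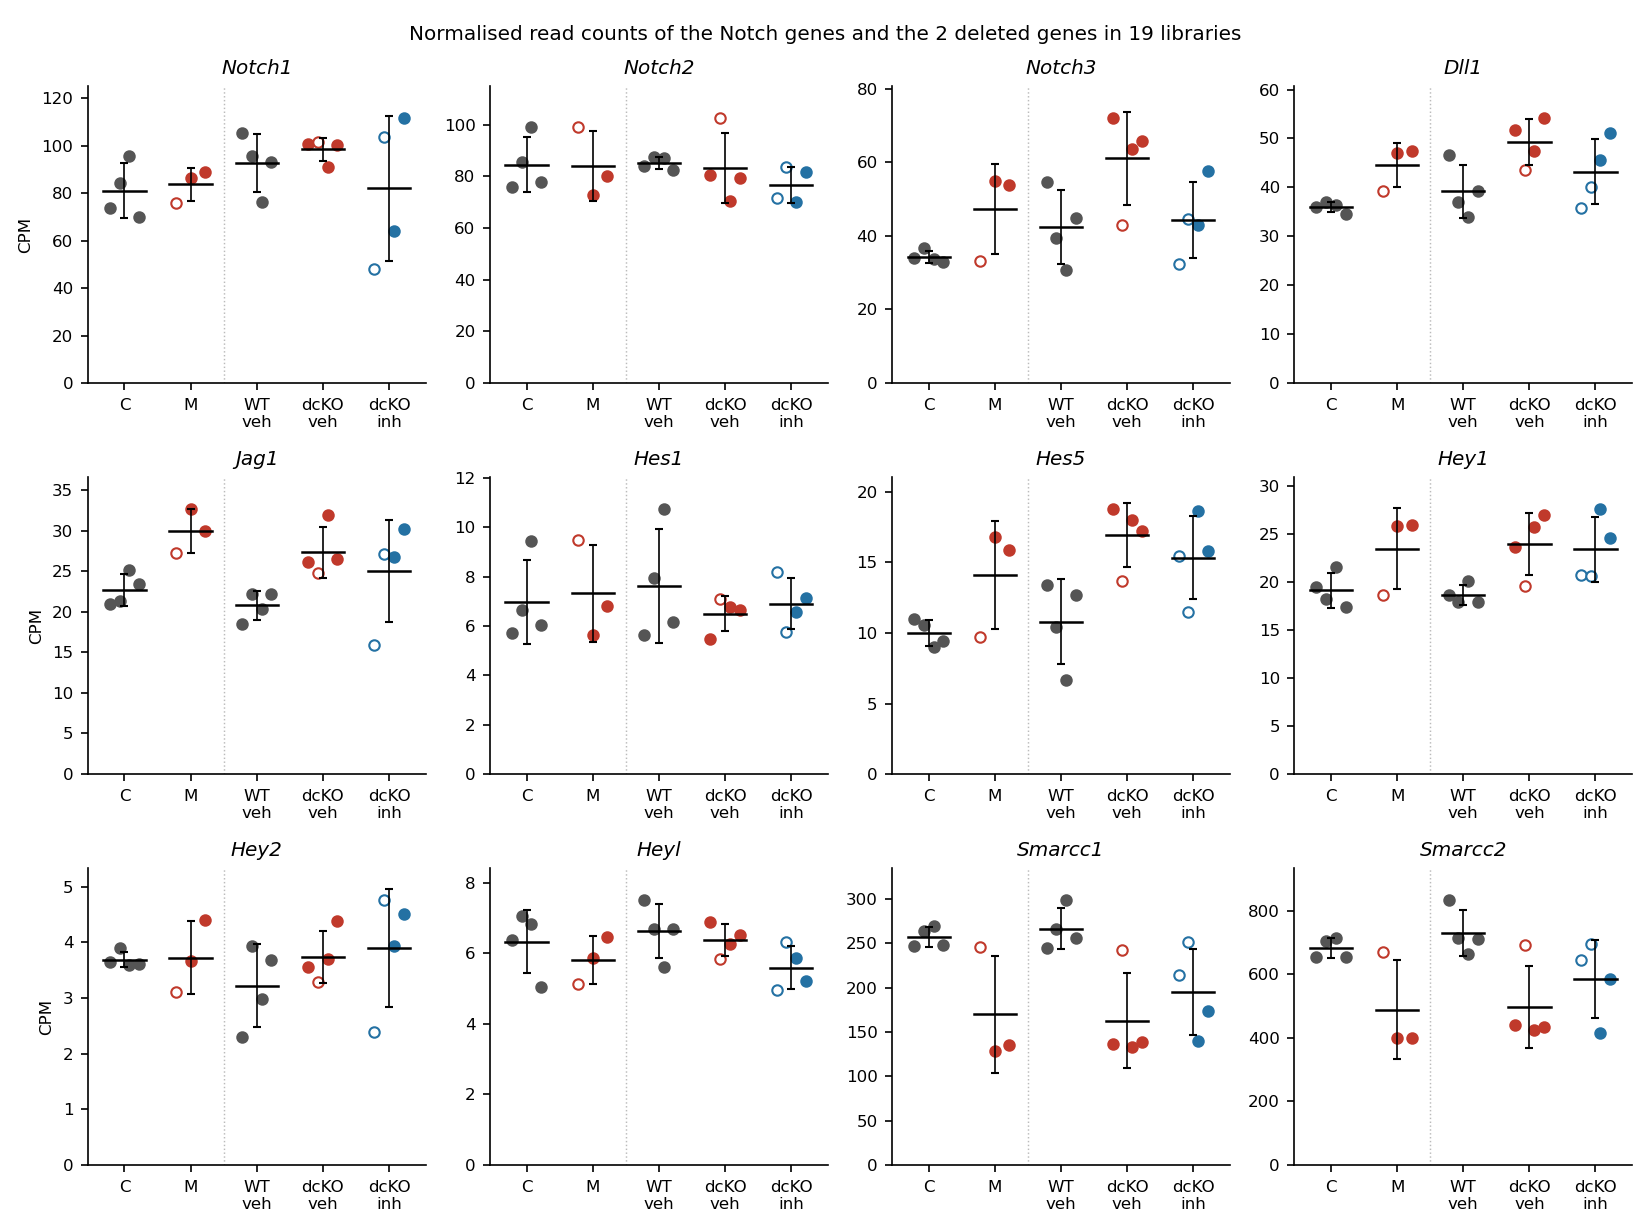
Normalised read counts (CPM, y axis) of the 10 Notch genes and the 2 deleted genes in each of 19 libraries (points), by group (x axis: untreated C and M, WT vehicle, dcKO vehicle, dcKO inhibitor). Bars give the mean ± SD of the group, and open circles mark the 4 libraries of high Smarcc1. For Notch3, Hes5 and Hey1, the open circles of the M and dcKO vehicle groups lie below the filled ones, at 33.2 against 53.8 and 55.1 CPM for Notch3 in M.

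To learn how the Notch genes behave when BAF155 and BAF170 are lost, M libraries were compared with C libraries. With all 7 libraries, no member passed the test (0 of 10 at an adjusted p under 0.05 in edgeR), where 0.00634% of 15770 tested genes passed. Of the 10 members, 5 had an unadjusted p under 0.05, all with higher levels in M (16% of all genes, in either direction). These were the receptor Notch3, both ligands, and the targets Hes5 and Hey1. The median log2 fold change was 0.18 over the members and 0.00 over all genes tested. Without the library labelled M replicate 2, these 5 members rose at an adjusted p under 0.05, where 12.4% of 16024 genes passed.

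Among the receptors, Notch3 lay at 34.1, 36.6, 33.7 and 33.0 CPM in C libraries 1 to 4 and at 33.2, 55.1 and 53.8 CPM in M replicates 2, 3 and 4. M replicate 2 lay within the range of the C libraries, and the other M libraries lay above it. The log2 fold change of Notch3 was 0.47 ± 0.15 (SE, adjusted p = 0.203) with all libraries and 0.66 ± 0.07 (adjusted p = 0.000274) without that library. Notch1, the main receptor of radial glia, lay at 73.6, 84.4, 95.7 and 70.0 CPM in C and at 75.9, 86.4 and 88.8 CPM in M, with overlapping groups. Its log2 fold change was 0.05 ± 0.11 (SE). Notch2 lay at 75.8, 85.7, 99.0 and 77.7 CPM in C and at 99.1, 72.9 and 80.1 CPM in M, with a log2 fold change of -0.02 ± 0.12 (SE). The receptors thus did not move as a group, since 1 of 3 had an unadjusted p under 0.05.

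Both ligands were higher in every M library than in any C library, a pattern that 6.96% of all genes showed in this direction. Dll1, the Delta ligand of newborn neuronal cells, lay at 36.0, 37.0, 36.4 and 34.7 CPM in C and at 39.3, 47.0 and 47.3 CPM in M. Its log2 fold change was 0.31 ± 0.08 (SE, unadjusted p = 0.00321, adjusted p = 0.146). Jag1, the Jagged ligand, lay at 20.9, 21.4, 25.2 and 23.5 CPM in C and at 27.3, 32.7 and 30.0 CPM in M. Its log2 fold change was 0.40 ± 0.10 (SE, unadjusted p = 0.00209, adjusted p = 0.142). Both passed with DESeq2 on the same libraries (adjusted p = 0.0299 for Dll1 and 0.0174 for Jag1), which called 2 of 10 members and 555 genes in all. Without M replicate 2, the log2 fold changes were 0.39 (adjusted p = 0.0053) for Dll1 and 0.46 (adjusted p = 0.0117) for Jag1.

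The targets split. Hes5, a repressor of proneural genes, lay at 11, 10.6, 9.0 and 9.44 CPM in C and at 9.74, 16.8 and 15.9 CPM in M. Hey1, a related repressor, lay at 19.5, 18.2, 21.6 and 17.4 CPM in C and at 18.6, 25.9 and 26 CPM in M. For both genes, M replicate 2 lay within the C range and the other M libraries above it. Log2 fold changes were 0.51 ± 0.17 (SE, adjusted p = 0.213) for Hes5 and 0.30 ± 0.13 (adjusted p = 0.294) for Hey1 with all libraries. They were 0.71 (adjusted p = 0.00256) and 0.43 (adjusted p = 0.0171) without M replicate 2. Hes1, the other main repressor of radial glia, lay at 5.71, 6.65, 9.46 and 6.05 CPM in C and at 9.49, 5.64 and 6.83 CPM in M. Its groups overlapped, and its log2 fold change was 0.04 ± 0.22 (SE) with all libraries and -0.17 ± 0.21 without M replicate 2. Hey2 lay between 3.59 and 3.90 CPM in C and between 3.11 and 4.40 CPM in M, and Heyl between 5.06 and 7.05 CPM in C and between 5.12 and 6.46 CPM in M. Their log2 fold changes were 0.03 ± 0.16 (SE) and -0.11 ± 0.15 (SE).

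The number of members at an unadjusted p under 0.05 rested on M replicates 3 and 4, since it was 2 of 10 without either of them. Without M replicate 2, the adjusted test passed 1994 genes in all, against 1 with all libraries. Other markers moved beside these differences. Summed neuron markers lay at 9676, 7963 and 8080 CPM in M replicates 2, 3 and 4 and between 9433 and 10370 CPM in C. Endothelial markers (9 genes) lay between 167 and 191 CPM in M and between 192 and 228 CPM in C. Intermediate progenitor markers (5 genes) lay at 341, 161 and 192 CPM in M replicates 2, 3 and 4 and between 194 and 305 CPM in C. Without M replicate 2, 3 of these 5 genes had a log2 fold change above 0. At an adjusted p under 0.05 in that fit, 2 of the 5 fell and 0 rose (12.4% of all genes). Of the 8 neuron markers, 5 fell and 0 rose. Summed radial glia markers overlapped, with 1369 to 1519 CPM in M and 1296 to 1403 CPM in C, but single genes moved in both directions. Of the 8 genes, 3 were higher and 1 lower in M at an unadjusted p under 0.05 (16% of all genes). At an adjusted p under 0.05 without M replicate 2, 3 rose and 2 fell (12.4% of all genes). Mural cell markers (9 genes), of interest for Notch3 and Heyl, were at 182 to 209 CPM in M and 202 to 230 CPM in C. Their part in the differences of the members was not tested.

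The vehicle groups gave a similar set of values, although the libraries are not taken as independent of the untreated ones. No member passed the test (0 of 10), where 0.00611% of 16372 genes passed. Of the 10 members, 5 had an unadjusted p under 0.05, all with higher levels in dcKO vehicle (9.46% of all genes, in either direction). The median log2 fold change was 0.27 over the members and 0.00 over all genes tested. Without the library labelled dcKO vehicle replicate 2 and inhibitor replicates 1 and 2, Hey1 rose at an adjusted p of 0.0261, and 5.82% of 16815 genes passed. Summed neuron markers lay at 7067, 8809, 7566 and 7733 CPM in dcKO vehicle libraries 1 to 4 and between 8004 and 10434 CPM in WT vehicle. Endothelial markers lay between 173 and 193 CPM against 185 and 234 CPM, and mural cell markers, of interest for Notch3, between 166 and 189 CPM against 187 and 209 CPM. Their part in the differences of the members was not tested.

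Hes5 had the largest difference, with 13.4, 10.4, 6.70 and 12.7 CPM in WT vehicle libraries 1 to 4 and 18.8, 13.7, 18.0 and 17.2 CPM in dcKO vehicle libraries 1 to 4. All dcKO vehicle libraries lay above all WT vehicle libraries, as for 3.08% of all genes, and replicate 2 lay just above the highest WT library. The log2 fold change of Hes5 was 0.64 ± 0.20 (SE, unadjusted p = 0.00729, adjusted p = 0.325). Jag1 also did not overlap, with 18.5, 22.2, 20.3 and 22.2 CPM in WT vehicle and 26.1, 24.8, 32 and 26.6 CPM in dcKO vehicle. Its log2 fold change was 0.40 ± 0.17 (SE, adjusted p = 0.471).

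Notch3 lay at 54.7, 39.5, 30.6 and 44.8 CPM in WT vehicle and at 72.1, 42.9, 63.6 and 65.9 CPM in dcKO vehicle. Dll1 lay at 46.6, 37.0, 33.9 and 39.3 CPM in WT vehicle and at 51.7, 43.6, 47.4 and 54.2 CPM in dcKO vehicle. Hey1 lay at 18.6, 17.9, 20.1 and 17.9 CPM in WT vehicle and at 23.6, 19.6, 25.8 and 27 CPM in dcKO vehicle. In each of these, only dcKO vehicle replicate 2 reached into the WT range. The log2 fold changes were 0.52 ± 0.21 (SE) for Notch3, 0.33 ± 0.13 for Dll1 and 0.37 ± 0.13 for Hey1, with adjusted p-values of 0.42, 0.432 and 0.373. Without the libraries of high Smarcc1 they were 0.66, 0.38 and 0.45, with adjusted p-values of 0.0584, 0.105 and 0.0261.

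The other members overlapped between WT and dcKO vehicle. Notch1 lay between 76.2 and 105 CPM in WT vehicle and between 91.1 and 101 CPM in dcKO vehicle, with a log2 fold change of 0.09 ± 0.21 (SE). Notch2 lay between 82.3 and 87.5 CPM in WT vehicle and between 70.4 and 103 CPM in dcKO vehicle (-0.03 ± 0.11). Log2 fold changes were -0.22 ± 0.20 (SE) for Hes1, 0.21 ± 0.23 for Hey2 and -0.06 ± 0.14 for Heyl. The count of 5 members fell to 2 without WT vehicle replicate 3, which had the lowest Hes5, Notch3 and Dll1 of its group, and to 3 without WT vehicle replicate 2 or dcKO vehicle replicate 1 or 4.

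**Figure D2:**
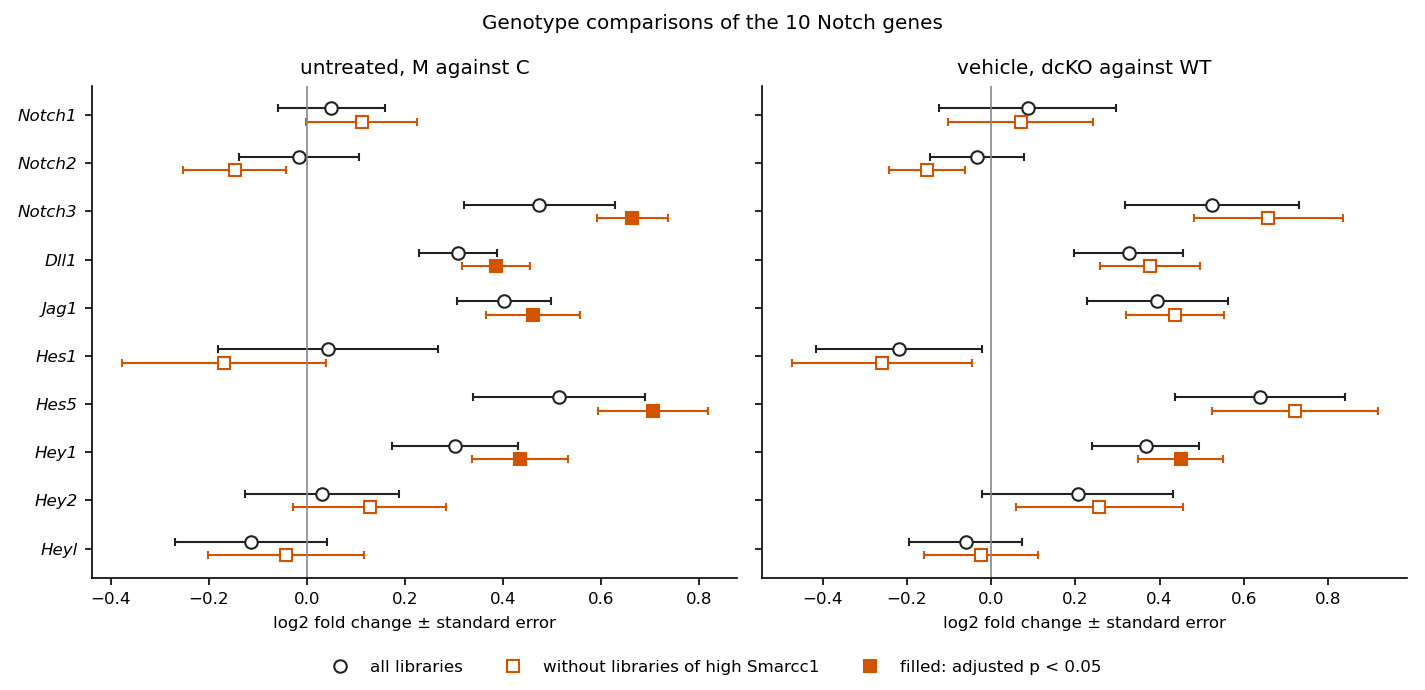
Log2 fold change (x axis, ± standard error) of the 10 Notch genes (y axis) for M against C and for dcKO against WT under vehicle. Circles use all libraries, squares leave out the libraries of high Smarcc1, and filled symbols have an adjusted p under 0.05. Notch3, Dll1, Jag1, Hes5 and Hey1 lie above 0 in both panels, and Hes5 reaches 0.71 and 0.72 in the squares.

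The size of the genotype effect was then compared between the 2 experiments by an interaction contrast. No member passed this test, with log2 differences from -0.26 for Hes1 to 0.18 for Hey2 and unadjusted p-values from 0.445 upward. Over 15999 genes, 0.0% passed at an adjusted p under 0.05, and 0.544% had an unadjusted p under 0.05. DESeq2 also gave no member at an adjusted p under 0.05. The share of 0.544% lies far below the threshold of 0.05, so the contrast was conservative. Its lack of calls does not show that the genotype effects are equal. Because libraries of the experiments may share embryos, this contrast is a description of 2 related data sets.

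To learn whether inhibition of Wnt signaling alters these genes in the mutant, dcKO inhibitor libraries were compared with dcKO vehicle libraries. No member passed the test (0 of 10), where 0.055% of 16372 genes passed. Notch3 was the member with the smallest p, with 32.3, 44.7, 42.9 and 57.6 CPM in inhibitor libraries 1 to 4, against the 42.9 to 72.1 CPM of dcKO vehicle. Its log2 fold change was -0.46 ± 0.21 (SE, unadjusted p = 0.0417, adjusted p = 0.298), and 15.8% of all genes had an unadjusted p under 0.05. Without the libraries of high Smarcc1 it was -0.42 ± 0.21 (SE, unadjusted p = 0.0776), where the inhibitor group kept replicates 3 and 4, no member had an unadjusted p under 0.05 (17.9% of 16815 genes), and 1.02% of genes passed the adjusted test. The count of 1 member was 0 without any single one of dcKO vehicle replicates 1, 3 and 4 or inhibitor replicates 1, 2 and 3, and 2 without inhibitor replicate 4.

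Notch1 was the least even member under the inhibitor. It lay at 48.2, 104, 64.1 and 112 CPM in inhibitor libraries 1 to 4, against 91.1 to 101 CPM in dcKO vehicle. Libraries 1 and 3 lay below every other library of the study, and the log2 fold change was -0.26 ± 0.21 (SE). These 2 libraries also had the highest choroid plexus markers, at 858 and 493 CPM, and the part of this in the Notch1 values was not tested. Dll1 lay at 35.9, 40.1, 45.6 and 51.1 CPM and Jag1 at 15.9, 27.2, 26.8 and 30.3 CPM in inhibitor libraries 1 to 4. Both overlapped with dcKO vehicle, with log2 fold changes of -0.19 ± 0.13 (SE) and -0.13 ± 0.17 (SE). Among the targets, Hes5 lay at 15.4, 11.5, 18.7 and 15.8 CPM and Hey1 at 20.8, 20.7, 27.6 and 24.6 CPM. Log2 fold changes of the 5 targets lay between -0.19 for Heyl and 0.09 for Hes1. With standard errors of 0.13 to 0.22 for the targets, differences of this size were not detectable here.

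Against WT vehicle, inhibitor-treated dcKO libraries had 2 of 10 members with higher levels at an unadjusted p under 0.05 (19.8% of all genes), and 0 of 10 passed the adjusted test (0.0977% of 16372 genes). These were Hey1, with a log2 fold change of 0.33 ± 0.13 (SE, adjusted p = 0.19), and Hes5, with 0.50 ± 0.20 (SE, adjusted p = 0.207). All inhibitor libraries lay above all WT vehicle libraries for Hey1, as for 3.48% of genes. Without the libraries of high Smarcc1, Hey1 rose by 0.49 ± 0.11 (SE, adjusted p = 0.0298), where 7.38% of 16815 genes passed. Jag1 then had a log2 fold change of 0.46 (adjusted p = 0.0611), Hes5 of 0.66 (adjusted p = 0.0987) and Notch3 of 0.24 (adjusted p = 0.495). The count of 2 members was 4 without inhibitor replicate 1, 1 without WT vehicle replicate 4, and 0 without WT vehicle replicate 2 or inhibitor replicate 3 or 4. Summed radial glia markers lay at 1653, 1458, 1779 and 1644 CPM in inhibitor libraries 1 to 4. They lay between 1347 and 1500 CPM in dcKO vehicle and between 1326 and 1490 CPM in WT vehicle. Neuron markers lay between 6974 and 8481 CPM under the inhibitor and between 8004 and 10434 CPM in WT vehicle. The part of these markers in the differences of the members was not tested. The inhibitor comparisons share their dcKO libraries with each other, and dcKO vehicle also serves the genotype comparison.

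**Figure D3:**
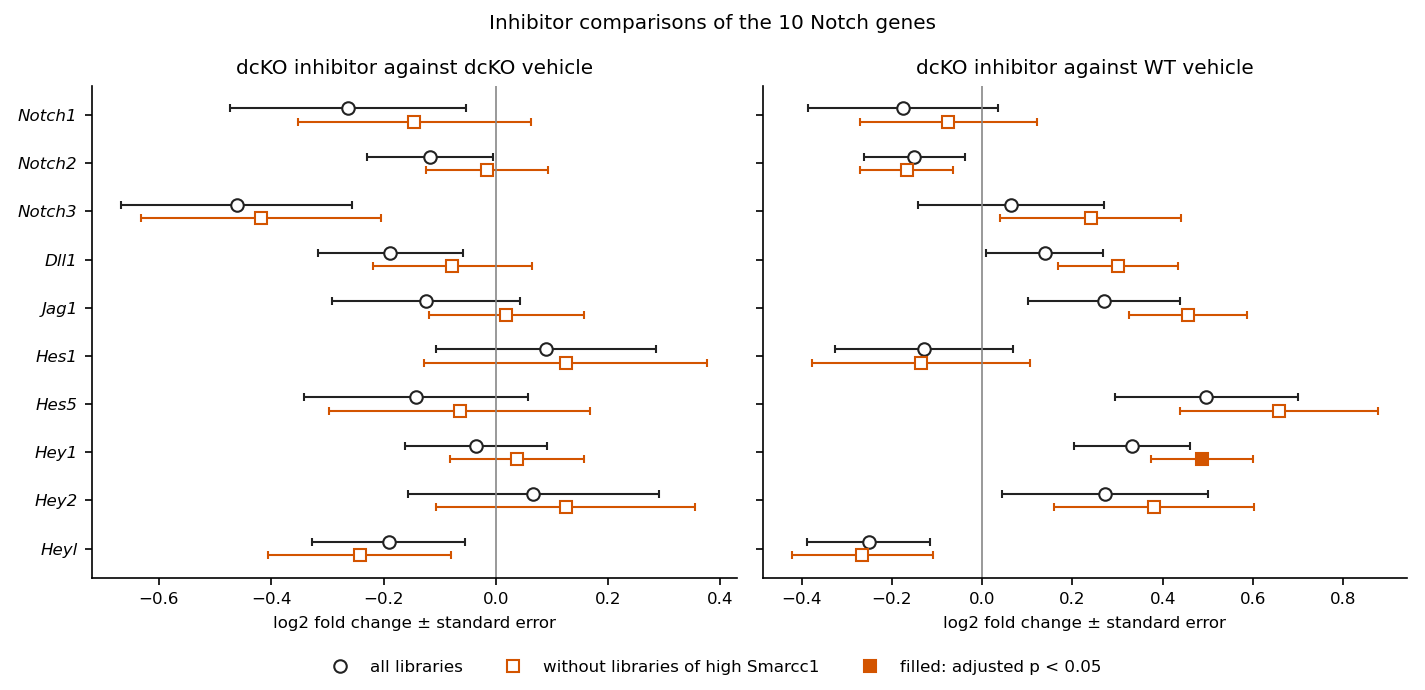
Log2 fold change (x axis, ± standard error) of the 10 Notch genes (y axis) for dcKO inhibitor against dcKO vehicle and against WT vehicle. Circles use all libraries, squares leave out the libraries of high Smarcc1, and filled symbols have an adjusted p under 0.05. Notch3 lies lowest in the left panel at -0.46, and Hey1 is the 1 filled symbol, at 0.49 in the right panel.

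The other genes of the pathway were examined as a list of 53, with ligands, fringe enzymes, cleavage enzymes, nuclear partners, corepressors, antagonists and further Hes genes, and 6 proneural genes were examined beside it. With all libraries, 0 of 51 tested pathway genes and 0 of 5 tested proneural genes passed in any of the 4 comparisons. In M against C, 10 of 51 pathway genes had an unadjusted p under 0.05, of which 6 had higher levels in M and 4 lower ones (16% of all genes), and the median log2 fold change of the list was 0.02. For dcKO against WT under vehicle, 3 were higher and 3 lower (9.46% of all genes), with a median of 0.00. For the inhibitor against dcKO vehicle, 2 were higher and 5 lower (15.8% of all genes), and against WT vehicle 4 were higher and 5 lower (19.8% of all genes). Without M replicate 2, 4 of 51 rose and 6 fell in M at an adjusted p under 0.05 (12.4% of all genes). Without the libraries of high Smarcc1, 2 rose and 2 fell in dcKO vehicle against WT vehicle (5.82% of all genes). The list was not tested against all genes, and these counts are a description.

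Of the 8 of these genes with the smallest p in M against C without M replicate 2, 7 are described here. Dll3, a Delta family member, lay at 5.65 to 7.79 CPM in C and at 6.46, 11.9 and 11.3 CPM in M replicates 2, 3 and 4. It rose by 0.74 ± 0.14 (SE, adjusted p = 0.00696) without M replicate 2. Mfng, a fringe enzyme that adds sugars to Notch receptors, lay at 22.8 to 36.4 CPM in C and at 28.8, 9.85 and 11.8 CPM in M. Its log2 fold change without M replicate 2 was -1.36 ± 0.19 (SE, adjusted p = 0.002). Both genes had M replicate 2 inside the C range.

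Corepressors of the TLE family, which work with Hes proteins, moved in opposite directions. Tle1 lay at 75.7 to 80.1 CPM in C and at 77.7, 111 and 116 CPM in M, and rose by 0.55 ± 0.05 (SE, adjusted p = 0.000157) without M replicate 2. Tle3 lay at 165 to 205 CPM in C and at 161, 116 and 131 CPM in M, with a log2 fold change of -0.54 ± 0.09 (adjusted p = 0.0049) in that fit. Tle4 lay at 164 to 185 CPM in C and at 203, 144 and 132 CPM in M (-0.34 ± 0.07, adjusted p = 0.00878). Adam17, a protease that can cut Notch receptors, lay at 33.1 to 39.6 CPM in C and at 37.7, 48.7 and 49.4 CPM in M, and rose by 0.42 ± 0.09 (adjusted p = 0.0124) without M replicate 2.

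Neurod4, a proneural transcription factor, lay at 4.62 to 7.93 CPM in C and at 7.64, 0.606 and 0.565 CPM in M, with a log2 fold change of -3.35 ± 0.29 (SE, adjusted p = 8.18e-05) without M replicate 2. In the vehicle groups, Neurod4 lay at 1.89, 4.15, 8.27 and 4.03 CPM in WT and at 0.451, 5.66, 0.697 and 0.42 CPM in dcKO libraries 1 to 4. It again had replicate 2 within the control range. Mfng and Tle3 fell and Tle1 and Dll3 rose in that comparison without the libraries of high Smarcc1, with log2 fold changes of -1.28, -0.59, 0.49 and 0.67 and adjusted p-values of 0.00236, 0.00708, 0.00792 and 0.0199. With all libraries, none of these 7 genes passed in either comparison.

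**Figure D4:**
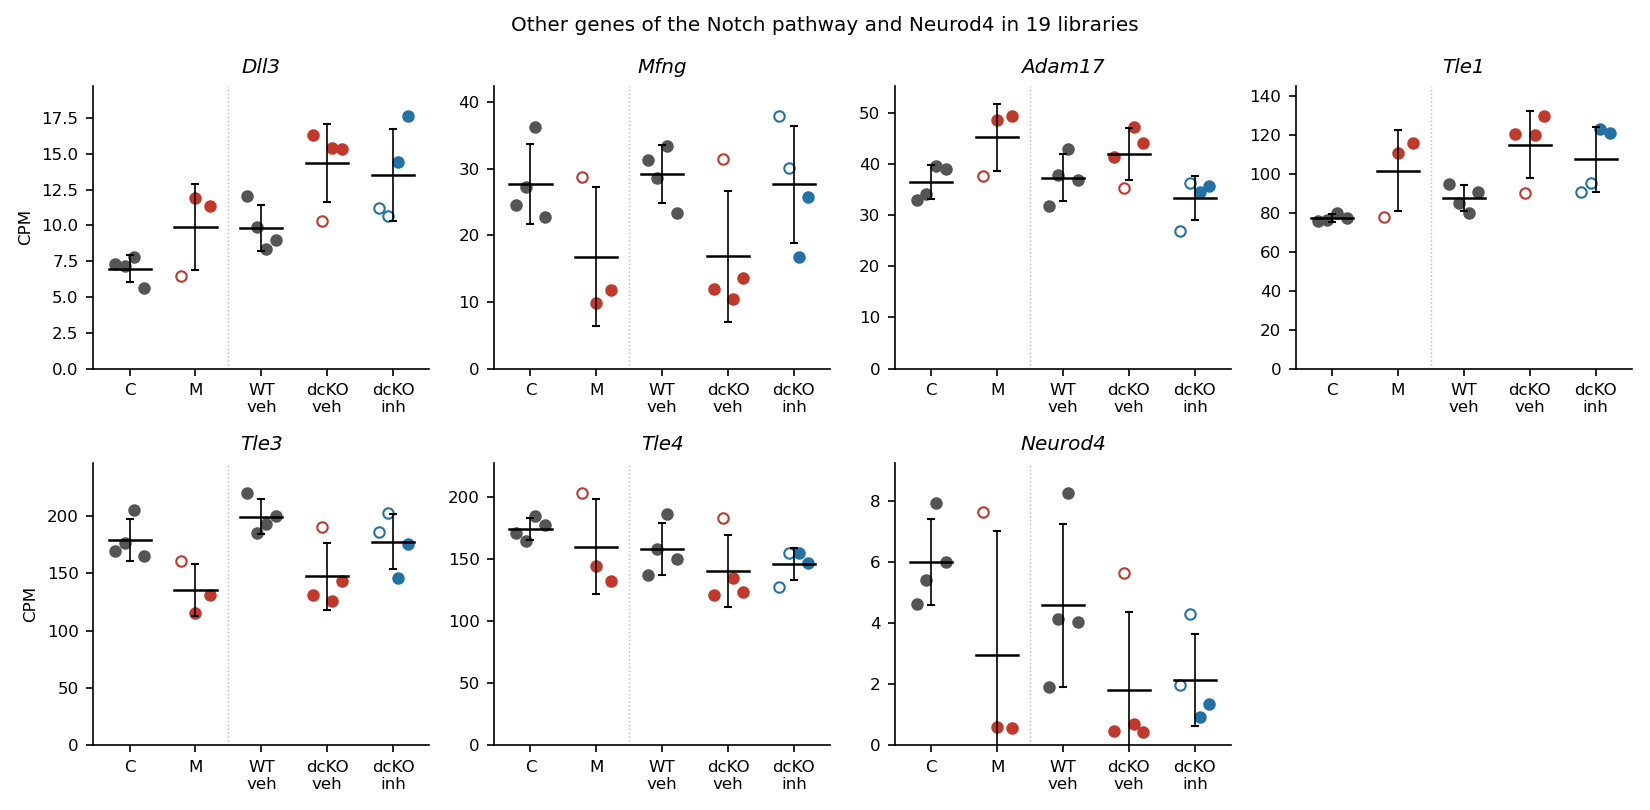
Normalised read counts (CPM, y axis) of 6 other pathway genes and the proneural gene Neurod4 in each of 19 libraries (points), by group (x axis, in the same order as for the Notch genes). Bars give the mean ± SD of the group, and open circles mark the 4 libraries of high Smarcc1. The filled M circles of Mfng lie at 9.85 and 11.8 CPM, below all C libraries, and the open one lies at 28.8 CPM among them.

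H3K27me3, a histone mark of repressed chromatin, was then examined at the Notch loci as a second readout. The peak lists give the fold enrichment over input of broad peaks called in each library, and a library without a peak in a region was set to 1. A region lay within 2000 bp of a start in 6 of 10 members (Notch1, Jag1, Hes1, Hes5, Hey2 and Heyl), whereas 25.6% of 21951 protein-coding genes had such a region. The promoter windows of Hes5 and Hey2 shown above lie wholly inside their regions. Notch2, Dll1 and Hey1 had no region that met the rule of a peak in at least 2 libraries, and Notch3 had 1 inside the gene only (chr17:32162252-32162844). That Notch3 region had a peak in K replicates 1 and 4 (3.83 and 3.61) and in no C library. Its log2 fold change was 0.95 (limma, unadjusted p = 0.168). Further regions inside Jag1 had log2 fold changes of -0.05 and -0.49. The genes with higher RNA in M thus fell on both sides. Jag1 and Hes5 had a region at their start, and Notch3, Dll1 and Hey1 had none that met the rule. A missing peak call does not show that the mark is absent. In whole tissue, the mark in one cell type and the RNA of another cannot be told apart.

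At each of the 6 genes, the same libraries had a peak: C replicates 1, 2 and 4 and K replicates 1, 3 and 4. A region with a peak in exactly these 6 libraries lay at a start of 1032 of 21951 protein-coding genes (4.70%). The region of Hes5 (chr4:154959352-154962634) had a fold enrichment of 6.61, 3.44 and 3.80 in C replicates 1, 2 and 4 and of 6.34, 4.18 and 6.70 in K replicates 1, 3 and 4. The region of Hey2 (chr10:30841285-30846856) had 3.70, 4.22 and 4.33 in these C libraries and 4.81, 5.53 and 7.69 in the K libraries. Hey2 was the 1 member whose K libraries with a peak all lay above its C libraries with a peak. The share of all regions with this pattern was not counted. In limma, where libraries without a peak enter as 1, the Hey2 region had an unadjusted p of 0.648. The region of Hes1 (chr16:30059427-30071126) was the longest, at 11700 bp, and had 6.80, 4.73 and 4.11 in C and 6.81, 4.10 and 6.18 in K. The C and K values of Hes1 overlapped.

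The region of Notch1 (chr2:26501155-26505879) had a fold enrichment of 8.77, 4.13 and 3.89 in C replicates 1, 2 and 4 and of 8.54, 4.48 and 7.73 in K replicates 1, 3 and 4. The region of Jag1 (chr2:137113650-137117823) had 10.04, 4.12 and 4.09 in C and 8.89, 4.41 and 6.86 in K. Heyl had a region at each of its annotated starts, with values of 4.11 to 10.3 in the C libraries and 4.21 to 9.94 in the K libraries. In all 7 regions, K replicate 4 lay above C replicates 2 and 4.

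In limma, none of the 7 regions at starts passed the test between K and C. Log2 fold changes lay between 0.08 and 0.40, all positive, with an adjusted p of 1 for each. Over all 22220 regions, 0.0% passed at an adjusted p under 0.05 and 0.221% had an unadjusted p under 0.05. A higher mean in K was found in 59.8% of all regions, in 48.9% after centring on the library medians and in 41.6% without C replicate 3. C replicate 3 and K replicate 2 lacked a peak in every member region. They kept 2420911 and 3386488 tags after duplicates were removed, where the other libraries kept 2806857 to 28335352, and had a peak at the start of 8.05% and 7.14% of protein-coding genes, against 15.5% to 24.4% in the other libraries. Since they enter as 1, the standard errors are wide, and the median log2 fold change of the 7 regions, 0.20, went to -0.43 without C replicate 3, to -0.21 without K replicate 1, to -0.08 without K replicate 4 and to 0.88 without K replicate 2.

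**Figure D5:**
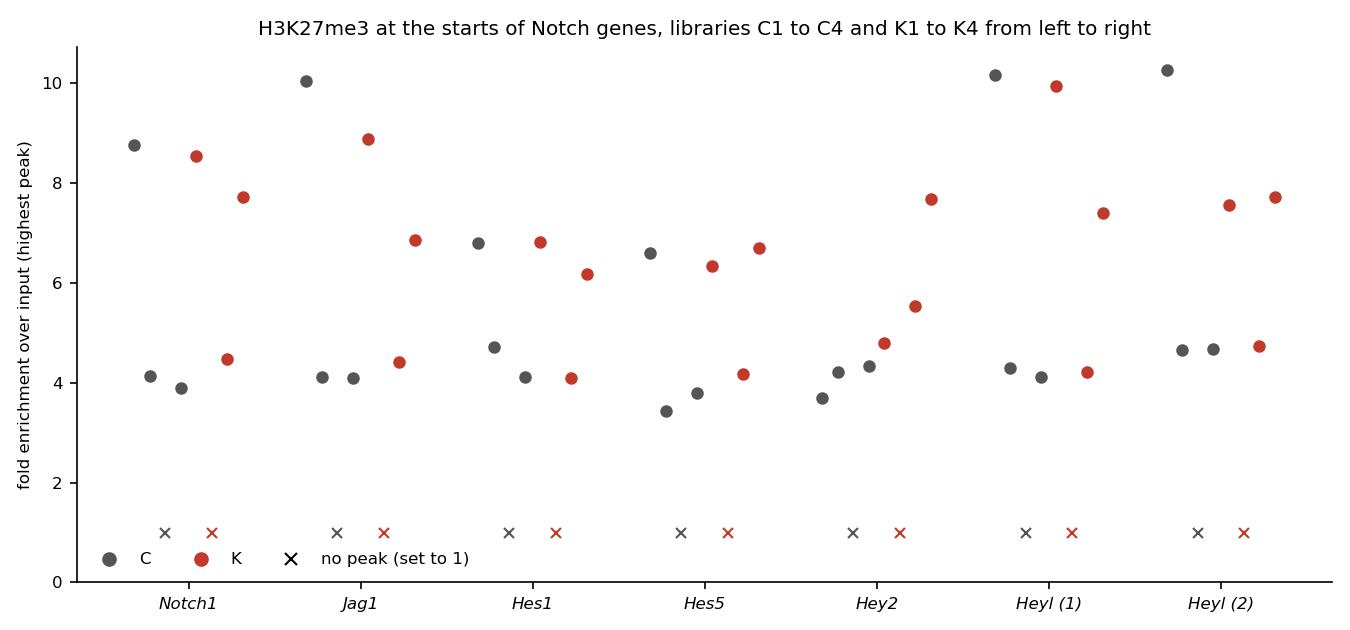
Fold enrichment of H3K27me3 over input (y axis, highest peak of the library in the region) at 7 regions at the starts of 6 Notch genes (x axis). Each point is a library, C in grey and K in red, replicates 1 to 4 from left to right within a letter, and crosses are libraries without a peak. The crosses are C replicate 3 and K replicate 2 in every region. At Hey2, the points with a peak lie at 3.70 to 4.33 in grey and at 4.81 to 7.69 in red.

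Finally, the gene with the most similar profile was looked up for each member over the 12 treated libraries. The highest Pearson correlations of log2 CPM were 0.98 for Notch1 with Sox4, a transcription factor of neural progenitors and newborn neurons, 0.98 for Hes5 with Hs1bp3 and 0.97 for Notch3 with Akap1. They were 0.96 for Hey1 with Rgcc, 0.94 for Dll1 with Ddr1, 0.94 for Heyl with Kif3c and 0.93 for Jag1 with D030068K23Rik. Notch2 had 0.87 with Bcl7a, which encodes a subunit of BAF complexes, Hey2 had 0.92 with D030068K23Rik and Hes1 had 0.86 with Ndufs1. These are the highest among all genes of sufficient level over 12 libraries that share groups, depth differences and tissue composition, and they are given as a description. Over the 7 untreated libraries, the same pairs gave 0.97 for Notch2, 0.97 for Notch3 and 0.94 for Hey1, but -0.17 for Jag1 and 0.27 for Heyl.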

How the data were processed

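RNA of the whole embryonic cortex was sequenced with a kit that does not mark strand, so reads of overlapping genes cannot be told apart. The deposited values are raw counts per gene, which the authors made with featureCounts from STAR alignments to mm10. For H3K27me3, the authors called broad peaks with MACS2 against pooled input at a q limit of 0.1, keeping 1 tag per position. The deposited peak lists give the fold enrichment, the pileup (signal) and the -log10 q of each peak, and the MACS2 version is not given in the sources used here. The submitters' processing notes name mm10 and MACS2.

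Samples were grouped by title letter or treatment label. The Notch genes and all gene lists were chosen with earlier results of these data known. Nothing in the labels states that libraries of a group came from separate embryos, so p-values measure the spread between libraries. Counts were tested with edgeR 4.0.16 (TMM, filterByExpr, robust quasi-likelihood test) in R 4.3.3, 1 fit per experiment, with Benjamini-Hochberg adjustment over all genes tested at 0.05, and a fit of both experiments for the difference of genotype effects. All tests were two-sided. CPM used TMM library sizes. On simulated data, 189 of 200 genes with a log2 change of 1 were recovered for M against C among 15552 genes, with 11 false calls, and 175 of 200 for the vehicle comparison among 16203 genes, with 14 false calls. With all libraries, log2 fold changes of the members reached at most 0.51 for M against C and 0.64 for the vehicle comparison. Recovery of genes at these smaller sizes was not tested. Gene symbols were matched by Ensembl gene ID for 36602 of 38355 untreated and 48349 of 48709 treated genes.

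Peaks of all libraries that overlapped by at least 1 bp were merged to regions, only regions found in 2 or more libraries were kept, the highest fold enrichment per library was taken on the log2 scale (1 where no peak was listed) and K was compared with C in limma 3.58.1. A region was assigned to a gene by a start within 2000 bp. Members were named in full, and since no other pathway or proneural gene passed with all libraries, the 8 of these with the smallest p-values for M against C without the libraries of high Smarcc1 were taken, a choice made after the values were seen, and 1 of them is not reported here. The most similar gene was taken by Pearson correlation over genes with a mean log2 CPM of at least 3. Alternatives were DESeq2 1.42.0, its size factors, no filter on low counts, a block for the replicate number, fits of the compared groups alone, each library left out, and for peaks a stricter q (-log10 q over 2), 3 libraries, pileup, median centring and gene bodies. Input libraries entered only through the peak calls of the authors and were not used here on their own.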

Additional observations from a re-analysis of the deposited data

Results flagged for a closer look

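In groups of 4 libraries, the distance of the most extreme library from its nearest neighbour was compared with the range of the group (Dixon's criterion at 95%). The M group, with 3 libraries, was not tested, so M replicate 2 could not be flagged. Of 62 such groups tested over the members, the deleted genes and the H3K27me3 regions at member starts, 3 had a library beyond the limit, and chance gives about 1 in 20. Notch1 in the library labelled dcKO vehicle replicate 3 lay at 91.1 CPM, below the 100.3 to 101 CPM of the other dcKO vehicle libraries. Smarcc1 in the library labelled dcKO vehicle replicate 2 lay at 242 CPM, above the 133 to 138 CPM of the others. Smarcc2 in the same library lay at 692 CPM, above the 425 to 439 CPM of the others.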

How the results depend on the processing

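For M against C, 1 gene passed the adjusted test in the fit as reported. The count was 154 with no filter on low counts, 555 with DESeq2, 0 with the replicate block and 1994 without the libraries of high Smarcc1, and it ranged from 0 to 1994 when single libraries were left out. The members passing were 2 with DESeq2 and 5 without the libraries of high Smarcc1, with a range of 0 to 5 over single libraries, where 5 came from leaving out M replicate 2. Members at an unadjusted p under 0.05 were 2 with the replicate block, and 2 to 5 over single libraries. For dcKO vehicle against WT vehicle, the count of all genes was 0 with DESeq2 size factors, 0 with no filter, 120 with DESeq2, 5 with the replicate block, 0 in a fit of only the 2 groups compared and 978 without the libraries of high Smarcc1. It ranged from 0 to 562 over single libraries, and the members passing were 1 without the libraries of high Smarcc1. Members at an unadjusted p under 0.05 ranged from 2 to 5. For the inhibitor against dcKO vehicle, all genes were 20 with no filter, 339 with DESeq2 and 172 without the libraries of high Smarcc1, with 0 to 420 over single libraries, and members at an unadjusted p under 0.05 were 0 without the libraries of high Smarcc1 and 0 to 2 over single libraries. For the inhibitor against WT vehicle, all genes were 58 with no filter, 770 with DESeq2, 189 with the replicate block, 8 in a fit of only the 2 groups and 1241 without the libraries of high Smarcc1, with 0 to 1453 over single libraries. Members passing were 1 and members at an unadjusted p under 0.05 were 4 without the libraries of high Smarcc1, and the latter were 0 to 4 over single libraries. The cause of these shifts was not tested.

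Signs that turned belonged to members with small differences. The log2 fold change of Hes1 in M against C was -0.030 with the replicate block and -0.17 without the libraries of high Smarcc1. Those of the inhibitor against dcKO vehicle were 0.019 for Jag1 and 0.037 for Hey1 without these libraries. Over single libraries, M against C ranged from -0.013 to 0.14 for Notch1, -0.15 to 0.078 for Notch2, -0.17 to 0.23 for Hes1 and -0.11 to 0.13 for Hey2. The vehicle comparison ranged from -0.15 to 0.039 for Notch2 and -0.12 to 0.0042 for Heyl. The inhibitor against dcKO vehicle ranged from -0.23 to 0.039 for Jag1, -0.13 to 0.020 for Hey1 and -0.037 to 0.24 for Hey2. The inhibitor against WT vehicle ranged from -0.36 to 0.0085 for Notch1, -0.090 to 0.20 for Notch3 and -0.25 to 0.069 for Hes1. For H3K27me3, 0 to 1 regions passed and the median at member starts ranged from -0.43 to 0.88 over single libraries.

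Between groups of 1 experiment, replicate numbers were not taken as pairs: same-numbered libraries had correlations of deviations of -0.31 to -0.03 (mean -0.14) in the untreated and -0.18 to 0.40 (mean 0.09) in the treated experiment, where WT vehicle replicate 1 reached 0.38 and 0.40 with the dcKO libraries of its number under vehicle and inhibitor. The replicate block changed no call of a member on adjusted p-values, but with all libraries no member passed, so there was no call to lose. In M against C, members at an unadjusted p under 0.05 went from 5 to 2 with the block. Depth limits the least abundant genes, with a lowest count of 36 reads for a member.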
